A study of Homo sapiens with 6 samples.

Results

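Transcription factors that mark and specify the layers of the cerebral cortex were followed in human forebrain organoids, stem cell-derived aggregates guided towards dorsal forebrain tissue. The set holds 9 genes of the 18056 in the table, chosen by name from their known roles. The deep-layer class has 6 members, TBR1, BCL11B, FEZF2, SOX5, FOXP2 and TLE4. CUX1, CUX2 and POU3F2 form the upper-layer class. All 9 had enough reads to enter the test, which covered 13842 genes. All organoids were grown from DYR0100, a pluripotent line (iPSC) with a wild-type genotype, so every library shares a single genetic background. Polyadenylated RNA was sequenced from 3 libraries of vehicle-treated organoids and 3 of organoids exposed for 6 days to 5 µM Aβ42, the aggregation-prone amyloid-β peptide. The series describes the 3 as independent biological replicates, the labels give no organoid age, the number of organoids per library is not given in the sources used here, and all libraries carry a single batch label.

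In the developing cortex, neurons of the deep layers are born before those of the upper layers. Deep-layer neurons project largely to targets outside the cortex, and upper-layer neurons largely connect cortical areas. The factors named here act in a network of cross-repression: FEZF2 and BCL11B promote subcerebral projection neurons, TBR1 restrains them in favour of corticothalamic neurons, and SOX5 times the production of the deep-layer types. TLE4 is a corepressor that does not bind DNA itself and marks corticothalamic neurons, while FOXP2 marks deep-layer neurons and is also high in striatal neurons. CUX1, CUX2 and the POU factor POU3F2, also called BRN2, mark upper-layer neurons, and progenitor cells express them as well.

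Promoter sequence is shown for 4 members, because they include members that were lower with Aβ42 from both classes (TBR1, CUX1, CUX2) and the upper-layer member that was not (POU3F2). Each line gives the 250 bases before the transcript start from RefSeq on GRCh38.p14, 5′ to 3′ on the strand of the gene, which is the plus strand for all 4. Capitals mark matches on either strand to any of 4 short motifs. These were TAATTA, the homeodomain core, then CCAAT, the CCAAT box, then AGGTGT, which is a T-box half-site, and AACAAT, which is the core of SOX sites. The windows are chr2:161416047-161416296 for TBR1, chr7:101815757-101816006 for CUX1, chr12:111033915-111034164 for CUX2 and chr6:98834324-98834573 for POU3F2.
TBR1: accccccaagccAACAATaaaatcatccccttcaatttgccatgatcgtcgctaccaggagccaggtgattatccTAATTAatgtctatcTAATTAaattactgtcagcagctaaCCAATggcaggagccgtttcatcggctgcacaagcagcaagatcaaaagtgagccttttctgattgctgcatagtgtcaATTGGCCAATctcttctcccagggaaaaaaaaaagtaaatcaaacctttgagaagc
CUX1: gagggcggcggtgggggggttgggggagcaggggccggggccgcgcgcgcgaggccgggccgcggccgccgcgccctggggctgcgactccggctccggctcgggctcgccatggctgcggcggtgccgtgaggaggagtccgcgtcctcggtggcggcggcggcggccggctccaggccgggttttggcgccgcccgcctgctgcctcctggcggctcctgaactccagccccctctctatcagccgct
CUX2: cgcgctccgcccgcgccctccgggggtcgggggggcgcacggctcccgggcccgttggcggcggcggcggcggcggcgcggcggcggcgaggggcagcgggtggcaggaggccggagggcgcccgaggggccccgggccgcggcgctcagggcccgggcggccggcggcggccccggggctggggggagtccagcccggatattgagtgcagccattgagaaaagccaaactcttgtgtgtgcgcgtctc
POU3F2: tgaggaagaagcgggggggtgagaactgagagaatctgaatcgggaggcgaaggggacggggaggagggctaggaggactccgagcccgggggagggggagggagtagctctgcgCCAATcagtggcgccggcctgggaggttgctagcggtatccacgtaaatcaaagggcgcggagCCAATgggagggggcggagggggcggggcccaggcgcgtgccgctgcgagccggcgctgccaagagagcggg
The CUX1 and CUX2 windows shown had 80.4% and 81.2% G or C and held no match to any of the 4 motifs. Each of these genes has a second window in the table, at a start further into the gene, with 82% G or C for CUX1 and 51.6% for CUX2 and again no match. The TBR1 window had 42.8% G or C and held 2 homeodomain cores, 3 CCAAT boxes and 1 SOX core, with 2 of the CCAAT boxes abutting on opposite strands and no match overlapping another. POU3F2 had 69.2% G or C and 2 CCAAT boxes. Over all 35116 RefSeq windows of this length the median was 58% G or C. A homeodomain core was present in 4.35% of them (2 or more in 0.353%) and a CCAAT box in 32.0% (2 or more in 9.53%). A T-box half-site was present in 9.57% and a SOX core in 8.98%. The table of promoters matched 8 of the 9 members, and FEZF2 was not matched. A match describes the letters only and shows neither binding nor control.

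Levels were compared between genes as TPM, which is scaled for gene length by the authors. TBR1 had the highest level of the 9, with a mean of 147.0 ± 13.4 TPM (SD over all 6 libraries), followed by POU3F2 with 121.7 ± 7.12. SOX5 (80.9 ± 10.9), CUX2 (65.4 ± 15.3), TLE4 (61.1 ± 7.39), FEZF2 (54.8 ± 10.7) and CUX1 (53.0 ± 8.75) followed, and each of these overlapped its neighbour in the order. BCL11B lay below them at 24.6 ± 2.93 TPM. FOXP2 was lowest at 1.64 ± 0.326 TPM, from 50 to 86 reads per library, where counting error alone is 11.9%. The ranges of TBR1 and POU3F2 overlapped by a narrow margin, although TBR1 was the higher of the pair in each library. Clear gaps separated POU3F2 from SOX5 (lowest 112.6 against highest 90.9 TPM), CUX1 from BCL11B (41.2 against 27.0) and BCL11B from FOXP2 (19.5 against 2.05). The deep-layer class therefore held both the most and the least abundant member. CUX2 varied most across libraries relative to its mean (23.4%), followed by FOXP2 (19.9%) and FEZF2 (19.5%), while POU3F2 varied least (5.85%).

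**Figure D1:**
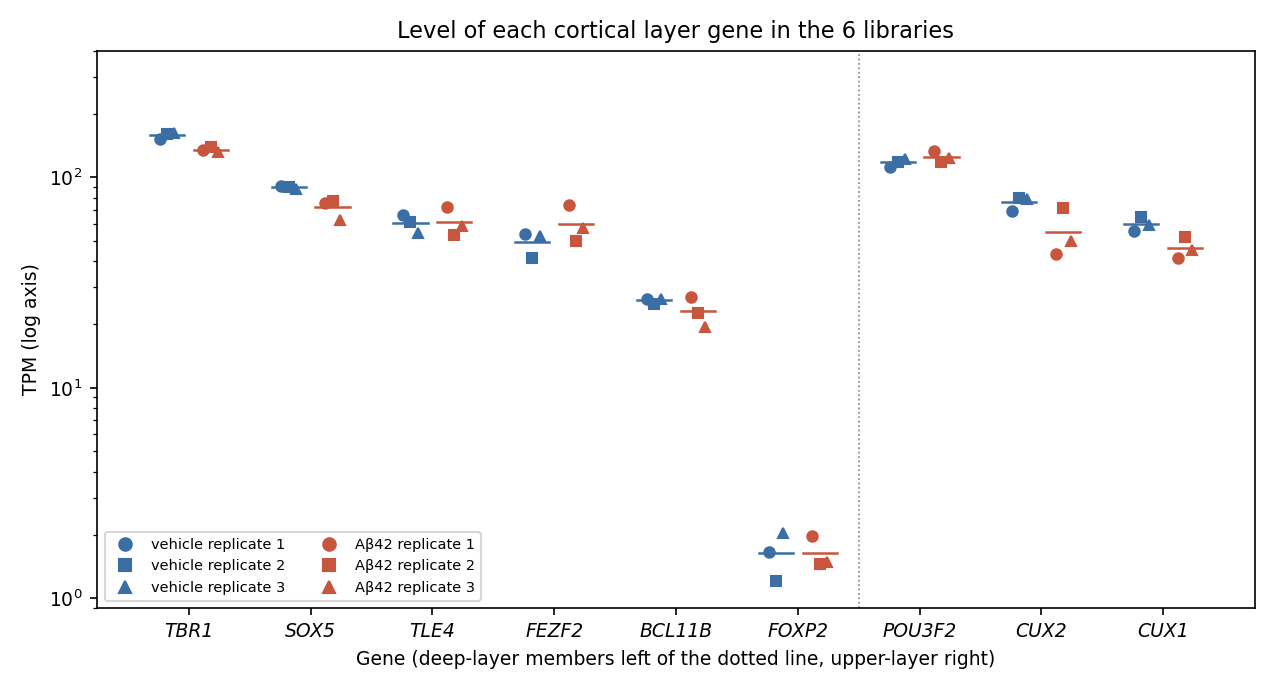
TPM (log axis) of the 6 deep-layer and 3 upper-layer members in each library; colours give the treatment, symbols the replicate and short lines the group mean (n = 3). TBR1 is highest and FOXP2 lowest, and the groups separate for TBR1, SOX5 and CUX1.

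The comparison of Aβ42 with vehicle asks which layer genes differed in exposed organoids. Both classes contained members that were lower and members that were higher. CUX2, CUX1, SOX5, TBR1 and BCL11B had lower means with Aβ42, and FEZF2, POU3F2, TLE4 and FOXP2 had log2 fold changes above 0. By edgeR's quasi-likelihood test without a block for replicate number, 0 of 9 members and 0% of all genes passed (adjusted p-value under 0.05). Before adjustment 4 of 9 members had a p-value under 0.05 (TBR1, SOX5, CUX1 and POU3F2), against 23.9% of all genes. With the replicate number as a block, a pairing taken from the data, 4 of 9 members passed, against 14.2% of all genes. TBR1, SOX5 and CUX1 fell (7.05% of all genes passed as lower) and FEZF2 rose (7.12% passed as higher). The Aβ42 values lay wholly below the vehicle values in 3 of 9 members, TBR1, SOX5 and CUX1, and wholly above in none. Among all genes 13.4% were separated as lower and 13.6% as higher, so the share of members separated in any direction was not far from that of all genes. Changes had a median size of 0.18 (log2) over the 9 members and 0.12 over all genes tested.

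Aβ42 replicate 2 stands apart from the other libraries of its group. Its mean correlation of log2 CPM over tested genes was 0.993 with the vehicle libraries and 0.990 with the remaining Aβ42 libraries. Without it, 5 of 9 members passed, against 23.1% of all genes: TBR1, SOX5, CUX1 and CUX2 fell and POU3F2 rose, while FEZF2 did not pass. As it was the Aβ42 library most like vehicle, its removal by itself favours a wider group difference. Leaving out any other single library gave 0 members and 0 genes past the threshold. Total counts per library lay between 16465390 and 16742958, so depth hardly differed. NEUROD6, a marker of pallial projection neurons, was at 646.9 to 720.2 TPM in the 6 libraries. The pluripotency factor NANOG was at or below 0.16 TPM, while POU5F1, another such factor, was at 1.71 to 3.66 TPM. The label iPSC is read here as naming the cells of origin.

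**Figure D2:**
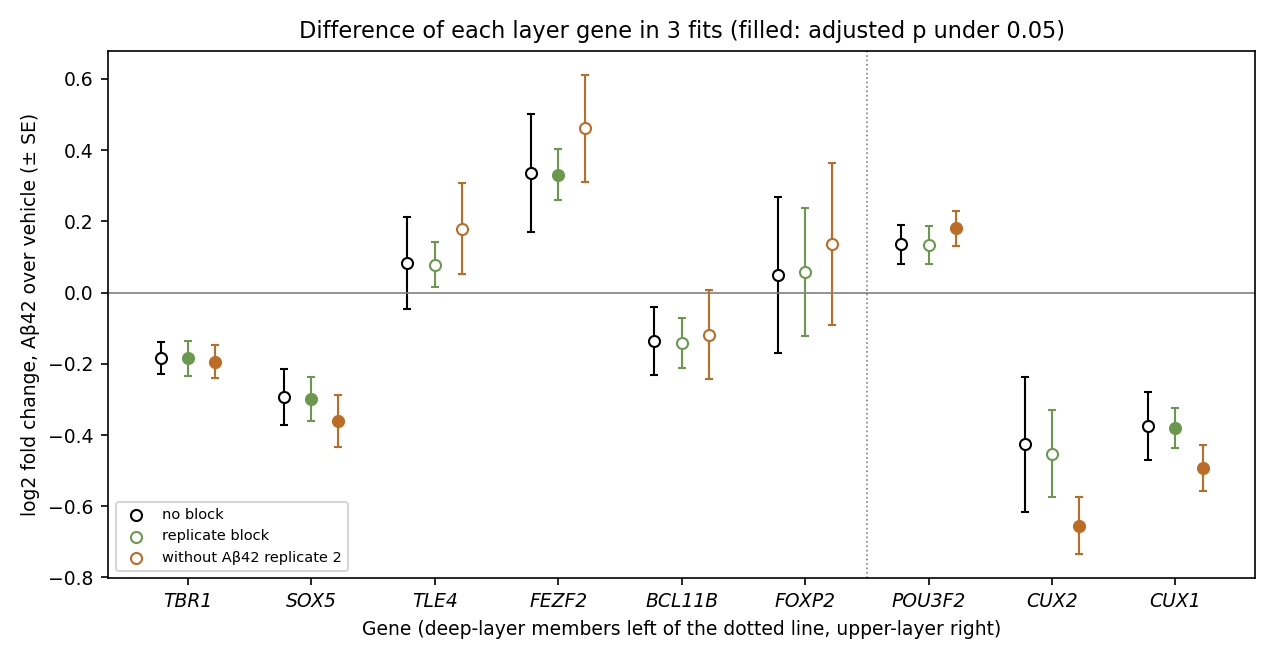
log2 fold change of each member (Aβ42 over vehicle, ± SE) without a block, with the replicate block and without Aβ42 replicate 2; filled points passed an adjusted p-value of 0.05. TBR1, SOX5 and CUX1 are filled in both alternatives, and no point is filled in the fit without a block.

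TBR1 (Entrez gene ID 10716, chr2:161416297-161425870 on GRCh38.p14), the T-box factor of early-born deep neurons, was at 152.0, 161.2 and 162.5 TPM in vehicle replicates 1 to 3. With Aβ42 it was at 135.6, 138.8 and 131.6 TPM. The groups did not overlap, and replicates within each group lay close together. In CPM it went from 228.1 ± 6.18 to 200.8 ± 2.41 (SD, n = 3 per group), a difference of -12.0%, and the log2 fold change was -0.18 ± 0.044 (SE). The adjusted p-value was 0.0734 without a block and 0.0203 with it, within a range of 0.00996 to 0.296 over 16 alternative fits.

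SOX5 (6660, chr12:23529504-24562650), an SRY-related factor that controls the sequence in which deep-layer neurons are made, was at 90.9, 90.0 and 88.5 TPM in vehicle. It was at 75.9, 76.9 and 63.1 TPM with Aβ42, again without overlap, with replicate 3 the lowest. Its log2 fold change was -0.29 ± 0.078, or -18.4%. Its adjusted p-value was 0.0856 without a block and 0.00591 with it (0.00591 to 0.296 over the alternatives).

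FEZF2 (55079, chr3:62369681-62373550), the zinc finger factor that specifies subcerebral projection neurons, moved the other way. Vehicle replicates 1 to 3 had 53.9, 41.5 and 52.7 TPM, and Aβ42 replicates 1 to 3 had 73.7, 49.96 and 57.3 TPM. The groups overlapped with replicate 2 the lowest library in both, and each Aβ42 library exceeded the vehicle library of its own number. The log2 fold change was 0.34 ± 0.165 without a block (adjusted p-value 0.265) and 0.33 ± 0.071 with it (0.00558, in a range of 0.00558 to 0.533). Of the 16 alternatives it passed with the replicate block alone. The smallest value among them, 0.17, came without Aβ42 replicate 1.

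BCL11B (64919, chr14:99169287-99272197), known as CTIP2 and needed for the axons of subcerebral neurons, was at 26.6, 25.0 and 26.6 TPM in vehicle and 27.0, 22.8 and 19.5 TPM with Aβ42. Its Aβ42 values spanned the vehicle values and beyond, and the log2 fold change of -0.14 ± 0.096 did not pass (adjusted p-value 0.413, 0.194 with the block). TLE4 (7091, chr9:79571965-79726882) was at 66.5, 61.1 and 54.2 TPM in vehicle and 72.5, 53.3 and 58.8 TPM with Aβ42. Its groups overlapped throughout (0.08 ± 0.129, adjusted p-value 0.728), and the sign turned without Aβ42 replicate 1 (-0.05). FOXP2 (93986, chr7:114086327-114693765) was at 1.66, 1.21 and 2.05 TPM in vehicle and 1.98, 1.45 and 1.48 TPM with Aβ42. At this depth its log2 fold change of 0.05 ± 0.219 left the direction undetermined, and it was -0.13 without vehicle replicate 2.

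Among upper-layer members, CUX1 (1523, chr7:101816007-102283958), a homeodomain factor of upper-layer neurons that is also made in many other cells, was at 55.8, 64.7 and 59.1 TPM in vehicle and 41.2, 52.0 and 45.2 TPM with Aβ42. The groups did not overlap, and replicate 2 was the highest library in each. In CPM it went from 107.4 ± 7.88 to 82.9 ± 11.6, a log2 fold change of -0.37 ± 0.095, or -22.8%. The adjusted p-value was 0.0835 without a block and 0.000503 with it, the smallest among the members in that fit (0.000477 to 0.322 over the alternatives). The CUX1 locus also encodes a Golgi protein from other exons, and the table does not separate the transcripts. In bulk libraries fewer cells of a type and less RNA per cell cannot be told apart, here and for every other member.

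CUX2 (23316, chr12:111034165-111350554), the homeodomain paralog of CUX1 with a more restricted expression in upper-layer neurons and their progenitors, had the largest difference of the 9 in the fit without a block. Vehicle libraries had 69.4, 79.6 and 79.1 TPM, and Aβ42 libraries had 43.2, 71.6 and 49.9 TPM. Aβ42 replicate 2 lay inside the vehicle range, and the other pair of Aβ42 libraries lay far below it. The log2 fold change was -0.43 ± 0.189, or -25.6%, with an adjusted p-value of 0.244 without a block and 0.0811 with it. Without Aβ42 replicate 2 it was -0.65 ± 0.080 (adjusted p-value 0.000868), and without Aβ42 replicate 1 it was -0.27 (0.000868 to 0.511 over the alternatives). The size of the CUX2 difference therefore rested on which Aβ42 libraries were included.

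POU3F2 (5454, chr6:98834574-98839458), a single-exon POU-homeodomain factor of upper-layer neurons and late progenitors, was at 112.6, 118.8 and 121.9 TPM in vehicle and 134.0, 119.0 and 123.7 TPM with Aβ42. The groups overlapped through Aβ42 replicate 2. The log2 fold change was 0.14 ± 0.055, or 9.89%, with an adjusted p-value of 0.168 (0.104 with the block). Without Aβ42 replicate 2 it was 0.18 ± 0.049 and passed at 0.0188 (0.0188 to 0.450 over the alternatives). Within the upper-layer class, CUX1 and CUX2 were thus lower while POU3F2 was not.

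Deep-layer and upper-layer members were then compared over the 6 libraries. The median log2 fold change was -0.04 over the 6 deep-layer members and -0.37 over the 3 upper-layer members, against 0.0032 over all genes tested. The mean of the deep-layer members minus the mean of the upper-layer members was 0.20. Because the members were chosen and are few, no test was made of this difference. Per library, the deep minus upper score (mean deviation of log2 CPM from the 6-library mean of each gene) was 0.04, -0.28 and -0.07 in vehicle replicates 1 to 3. It was 0.42, -0.16 and 0.05 in Aβ42 replicates 1 to 3. The groups overlapped: Aβ42 replicate 1 was above all other libraries, and Aβ42 replicate 2 lay between vehicle replicates 2 and 3. Within same-numbered libraries the Aβ42 score was the higher in all 3 pairs, by 0.38, 0.13 and 0.12. Without Aβ42 replicate 1 the difference between the class means was 0.04, and without vehicle replicate 2 it was 0.11. It was 0.34 without Aβ42 replicate 2 and 0.12 without CUX1, while CUX2 and POU3F2 were not left out in turn. Its size thus rested on single libraries and on which genes were included.

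Summed TPM weights the members by their level. The 6 deep-layer members together had 391.6, 380.1 and 386.5 TPM in vehicle and 386.6, 343.1 and 331.8 TPM with Aβ42. The 3 upper-layer members together had 237.8, 263.1 and 260.1 TPM in vehicle and 218.4, 242.5 and 218.8 TPM with Aβ42. Both sums had lower means with Aβ42, and both overlapped between groups. Their ratio also overlapped, at 1.65, 1.44 and 1.49 for vehicle against 1.77, 1.41 and 1.52 for Aβ42. Its mean was 1.53 ± 0.107 and 1.57 ± 0.183 (SD, n = 3 per group), and within same-numbered libraries it was higher with Aβ42 in pairs 1 and 3 and lower in pair 2, where the score was higher. The share of CUX2 in the upper-layer sum came to 29.2%, 30.2% and 30.4% for vehicle against 19.8%, 29.5% and 22.8% for Aβ42.

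**Figure D3:**
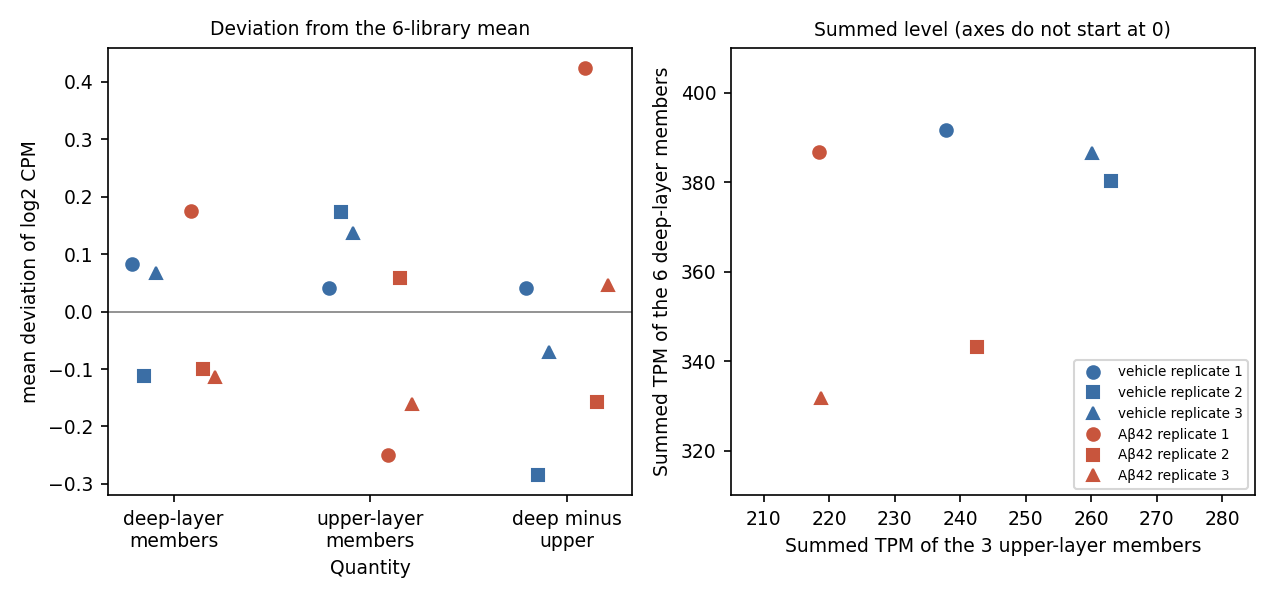
Left, mean deviation of log2 CPM from the 6-library mean for the deep-layer members, the upper-layer members and their difference, by library; right, summed TPM of the deep-layer members (y axis) against that of the upper-layer members (x axis). Colours give the treatment and symbols the replicate. The deep minus upper score overlaps between groups, with Aβ42 replicate 1 (0.42) highest and vehicle replicate 2 (-0.28) lowest.

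The members varied together across libraries along lines that crossed the layer classes. Pearson's r of log2 CPM over the 6 libraries, which share the treatment difference and are given as a description, was 0.953 between CUX1 and CUX2 and 0.829 between TBR1 and SOX5. It was 0.861 between TBR1 and CUX1, a pair from different classes. FEZF2 ran opposite to CUX1 (-0.925) and CUX2 (-0.894), and POU3F2 ran opposite to both as well (-0.901 and -0.881) although it belongs to their class. FEZF2 and POU3F2 had an r of 0.813.

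Among 143 tested genes of the lists, those most like TBR1 in pattern were TUBB3 (r = 0.973), MAP2 (0.959) and AUTS2 (0.950). For CUX1 they were UNC5D (0.997), TOP2A (0.990) and NUSAP1 (0.977), and for CUX2 they were SLC1A3 (0.988), GAP43 (0.976) and HES6 (0.973). FEZF2 was most like NFIX (0.995), NOTCH1 (0.968) and SKI (0.960). POU3F2 was most like its paralog POU3F3 (0.966), then SNAP25 (0.943) and EMX1 (0.904). The genes most like SOX5 included PPP1R17 (0.963) and BUB1 (0.931). FOXP2 was most like DLX2 (0.889), GAD2 (0.862) and DLX1 (0.846), TLE4 most like SYT6 (0.914), SATB1 (0.909) and TSHZ3 (0.869), and BCL11B most like FOXP4 (0.910), NFIB (0.906) and NFIA (0.884). With 6 libraries such values are high for many genes and rank the candidates only.

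Further genes of the same layers were taken from 2 lists of 12. Counts of genes past the threshold with the block, in these and the following lists, stand beside 7.05% of all genes as lower and 7.12% as higher. Of the other deep-layer genes, 8 were higher and 4 lower with Aβ42 (median log2 fold change 0.09), and 0 passed without a block. With the replicate block 3 rose, FOXP1, CRYM and LDB2, and LMO3 fell. FOXP1, the paralog of FOXP2, was at 15.6, 13.1 and 17.0 TPM in vehicle and 20.6, 15.4 and 21.3 TPM with Aβ42. Its log2 fold change was 0.36 ± 0.136 (adjusted p-value 0.163, 0.00203 with the block). CRYM, a thyroid hormone-binding protein of deep-layer neurons, was at 49.4, 36.7 and 47.5 TPM and 57.7, 45.2 and 53.2 TPM (0.29 ± 0.125, 0.198, 0.0283 with the block). In both genes replicate 2 was the lowest library of each group, as it was for FEZF2, and the groups overlapped.

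Of the other upper-layer genes, 3 were higher and 9 lower (median -0.09), and 0 passed without a block. With the block UNC5D fell and LMO4 and PLXND1 rose. UNC5D, a netrin receptor of migrating upper-layer neurons, was at 18.6, 25.6 and 20.9 TPM in vehicle and 9.48, 16.3 and 10.6 TPM with Aβ42, without overlap (-0.79 ± 0.228, adjusted p-value 0.126, 7.32e-06 with the block). LMO4, a LIM-only cofactor, was at 124.8, 131.8 and 137.8 TPM and 152.3, 133.2 and 167.3 TPM (0.24 ± 0.082, 0.132, 0.0144 with the block). Both lists thus held genes that rose and genes that fell in the fit with the block.

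**Figure D4:**
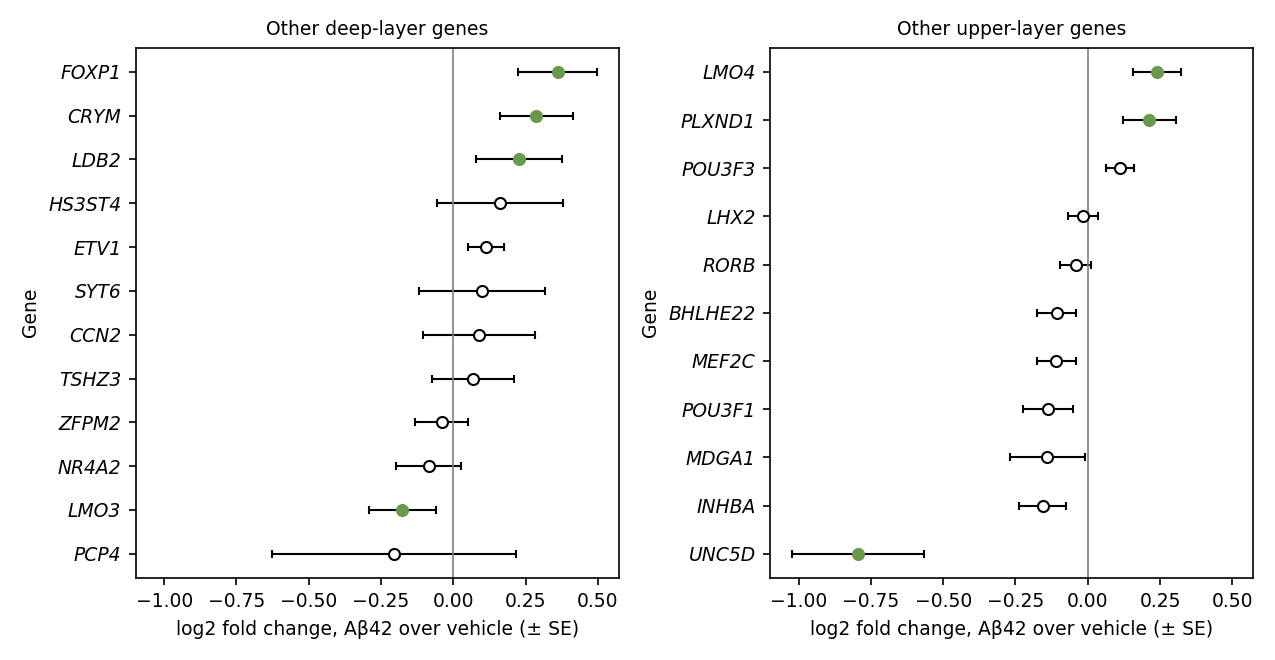
log2 fold change (Aβ42 over vehicle, ± SE, fit without a block) of 12 other deep-layer and 11 of the 12 other upper-layer genes; green points passed an adjusted p-value of 0.05 with the replicate block. UNC5D (-0.79) is lowest, and FOXP1 (0.36) is highest.

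Of 15 paralogs of the members 14 were tested, 9 of them higher and 5 lower (median 0.02), and with the block 2 rose and 2 fell. EOMES, the T-box paralog of TBR1 that marks intermediate progenitors, was at 92.6, 114.6 and 91.5 TPM in vehicle and 52.3, 67.8 and 42.9 TPM with Aβ42 (-0.83 ± 0.169, adjusted p-value 0.0779, 2.44e-06 with the block). Both T-box genes thus fell in the fit with the block, without overlap between groups. FEZF1 was low, at 1.98 to 3.20 TPM in vehicle and 0.61 to 1.60 TPM with Aβ42, and with the block it fell (-1.21 ± 0.357, 0.101, 0.00208 with the block) where FEZF2 rose. POU3F3, the paralog of POU3F2, was at 0.11 ± 0.050 (adjusted p-value 0.205). BCL11A, the paralog of BCL11B, was at 0.07 ± 0.061 (0.488). TLE2, a corepressor of the same family as TLE4, was at 23.7, 20.5 and 22.02 TPM in vehicle and 28.7, 26.0 and 29.0 TPM with Aβ42 (0.37 ± 0.085, 0.0734, 0.00537 with the block).

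Among regulators of pallial projection neurons, 18 were tested, of which 8 were higher and 10 lower (median -0.01). With the block 3 fell, EOMES, SOX11 and NEUROD2, and NFIX rose. NEUROD2, a basic helix-loop-helix factor of these neurons, went from 243.2 ± 7.93 to 215.7 ± 11.6 CPM (-0.17 ± 0.052, adjusted p-value 0.0986, 0.0385 with the block). Its relative NEUROD6 had a log2 fold change of -0.00078 ± 0.051, and EMX1, a homeodomain factor of the pallium, was at 0.15 ± 0.078 (adjusted p-values 0.993 and 0.263). The sign of NEUROD6 depended on the scaling and on single libraries, and that of EMX1 on the use of CPM or TPM. Of 6 genes known to be controlled by TBR1 or FOXP2, 5 were tested, 2 higher and 3 lower. AUTS2 (-0.29 ± 0.060, 0.0691, 0.00416 with the block) and GRIN2B (-0.25 ± 0.066, 0.0818, 0.0181 with the block) fell with the block. RELN, which TBR1 activates in early-born neurons, was at 2.31 to 3.15 TPM in vehicle and 2.59 to 3.34 TPM with Aβ42 (0.07 ± 0.136, 0.766).

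Markers of neurons and of other cells that express the members moved as follows. Of 13 pan-neuronal markers, 5 were higher and 8 lower (median -0.0025), and with the block 3 fell and 0 rose. Among those that fell were MAP2 (-0.18 ± 0.047) and TUBB3 (-0.16 ± 0.045), beside -0.18 for TBR1. SNAP25 was among the higher ones (0.15 ± 0.057) and did not pass with or without the block. The 13 together summed to 6221 to 6586 TPM in vehicle and 5863 to 6050 TPM with Aβ42. With log2(TPM + 1) the median log2 fold change over all genes was -0.040. The part of these markers in the TBR1 difference was not tested. Of 6 excitatory neuron markers 1 was higher and 5 lower (median -0.16), and GRIN2B and SLC17A6 fell with the block. All 8 markers of cycling cells were lower, 7 of them past the threshold with the block (7.05% of all genes passed as lower). Their summed level was 411.6 to 492.5 TPM in vehicle and 260.0 to 371.3 TPM with Aβ42. Of 8 intermediate progenitor markers 7 were lower, 6 past the threshold with the block, with 377.5 to 419.0 TPM in vehicle and 262.1 to 313.8 TPM with Aβ42. In both lists Aβ42 replicate 2 was the highest library of its group, as it was for CUX1 and CUX2. Their part in the CUX1 and CUX2 differences was not tested.

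Of 7 choroid plexus markers 1 was higher and 6 lower (median -0.49), and HTR2C, OTX2 and CLIC6 fell with the block. They summed to 3361, 7599 and 3977 TPM in vehicle and 3650, 6679 and 2846 TPM with Aβ42, nearly all of it the transthyretin gene TTR (means 4904 and 4330 TPM, log2 fold change -0.09 ± 0.488). By this sum replicate 2 was highest in both groups, the libraries in which FEZF2, FOXP1 and CRYM were lowest, and the part of this in their values was not tested. Inhibitory neuron and ganglionic eminence markers were low, and 5 of 10 had enough reads. These 5 were all higher with Aβ42 (median log2 fold change 0.45), but their groups overlapped and 0 passed with or without the block. The 10 together summed to 9.8 to 23.9 TPM in vehicle and 20.1 to 28.8 TPM with Aβ42. For the striatal factor ISL1 no library held a read, and a count of 0 allows at most 3 counts, or 0.182 CPM. Of 9 striatal neuron markers, which bear on FOXP2 and BCL11B, 5 were tested, and 1 (PENK, -0.48 ± 0.192, adjusted p-value 0.0157 with the block) passed with the block as lower. PENK is also counted among the intermediate progenitor markers. Of the remaining marker lists, 5 of 8 Cajal-Retzius genes were tested (3 higher, 2 lower), 7 of 7 astrocyte genes (2 higher, 5 lower, median -0.60), 3 of 6 oligodendrocyte genes (1 higher, 2 lower), and 4 of 7 mesenchymal and endothelial genes (1 higher, 3 lower). With the block the astrocyte genes S100B, GJA1 and SPARCL1 and the mesenchymal gene DCN fell, and no Cajal-Retzius or oligodendrocyte gene passed. No microglial gene of 6 had enough reads, and C1QA and TYROBP were at 0 counts in each library.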

How the data were processed

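The table deposited by the authors lists, for each gene, its reads and its TPM in all 6 libraries. Per the submitters' processing notes, GRCh38, FastQC, STAR 2.7.11b and featureCounts 2.0.6 were used, with no annotation or strand setting given. The deposited counts were whole in 86.9% to 87.5% of genes per library, so they were treated as estimated counts and rounded, and those of all 9 members were whole. The TPM values deposited by the authors are scaled for gene length and library total. After scaling each library, the ratio of count to TPM, which a fixed gene length would hold constant, ranged by 9.15% for CUX1, 7.01% for SOX5 and at most 2.77% for the other members above 5 TPM.

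Genes were filtered with filterByExpr, scaled by TMM and compared with edgeR 4.0.16 (quasi-likelihood test, robust, without a block, R 4.3.3), two-sided, with Benjamini-Hochberg adjustment over 13842 genes and calls made below 0.05. Fold changes are given as log2 of Aβ42 against vehicle, SE is their size over the square root of F, and CPM values are TMM-normalised. limma 3.58.1 and DESeq2 1.42.0 served as alternatives. The fit without a block was tested on simulated data. Their changes were larger than those of the members in that fit, without pairs and without an outlying library. The fits with the block or with a library left out were not tested in this way. Deviations from the group means over 12187 genes (mean count 50 or more) correlated between same-numbered libraries by 0.198, 0.411 and 0.133. As each exceeded 0.1, the numbers count as pairs here, in an alternative fit only. Libraries of different number were not compared in this way. This pairing comes from the data, since the labels do not say what a number shares. Libraries of a group differed by a chi-square of 3.30 to 9.40 per gene, above sampling noise, and were used as separate replicates. p-values without a block rest on the spread between libraries of a group. With the block they rest on the spread left after the replicate number is fitted. In both fits the spread of a gene is moderated over all genes tested. Counting errors do not cover amplification.

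The 20 gene lists (2 of them the member classes) and the alternatives, like the members, were chosen with earlier results of these data known. All members are named. Of each other list the 2 genes with the smallest p-value could be named but were not always, plus EOMES, NEUROD2, NEUROD6, EMX1 and RELN and paralogs of members. Some genes of the lists count in their totals but are not reported here. Other genes are named as past the threshold with the block or as most like a member, and NANOG and POU5F1 to check the labels. Results of lists are counts and medians without a test of the list.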

Additional observations from a re-analysis of the deposited data

How the results depend on the processing

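Members past the threshold numbered 0 in the fit without a block, under RLE or upper-quartile scaling, either other filter on low counts, limma-voom and both TPM scales. They numbered 3 with the DESeq2 Wald test (TBR1, SOX5 and CUX1), 4 with voom quality weights (the same 3 and CUX2) and 4 with the replicate block, and from 0 to 5 when each library was left out, with calls only without Aβ42 replicate 2. Over all genes the counts were 360 without a filter (3485 unadjusted), 804 with DESeq2, 2543 with quality weights, 1962 with the replicate block and 0 to 3224 with a library left out, and the cause was not tested. The deep minus upper difference of 0.20 stayed above 0 in all 18 alternatives (0.035 to 0.34), beside a replicate SD of 0.24. That SD is the within-group spread of single-library scores over all 6 libraries, not the error of a difference of means. The difference was largest without Aβ42 replicate 2 (0.34), without vehicle replicate 1 (0.27) and with quality weights (0.25). Of 37 genes followed singly, 32 kept their sign in all 16 alternatives. With a library left out, log2 fold changes ran from -0.13 to 0.23 for FOXP2, -0.047 to 0.18 for TLE4, -0.031 to 0.037 for NEUROD6 and -0.045 to 0.18 for RELN. NEUROD6 was at 0.014 under upper-quartile scaling and 0.011 with quality weights. With log2(TPM + 1), then log2(TPM + 0.1), EMX1 was at -0.0607 and -0.0631, where the median of all genes was -0.040 and -0.043. Depth limits FOXP2 most, at 50 to 86 reads per library.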

Other observations

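Ratios of TPM between members were looked at after their values were seen and are given as values only. FEZF2 over TBR1, both deep-layer factors, came to 0.354, 0.257 and 0.324 for the vehicle libraries, in order of replicate number, against 0.544, 0.360 and 0.435 for the Aβ42 libraries. CUX2 over POU3F2, both upper-layer factors, came to 0.616, 0.670 and 0.648 for vehicle against 0.322, 0.602 and 0.404 for Aβ42. In neither ratio did the groups overlap, nor did they for CUX1 over POU3F2 or FEZF2 over SOX5. Each ratio here sets a member that was lower with Aβ42 against one that was higher, which by itself favours separation. The share of all gene pairs that separate was not computed. Ratios across the classes included both cases. TBR1 over POU3F2 came to 1.35, 1.36 and 1.33 for vehicle against 1.01, 1.17 and 1.06 for Aβ42, without overlap. FEZF2 over CUX2 came to 0.777, 0.521 and 0.666 for vehicle against 1.71, 0.698 and 1.15 for Aβ42, and here the groups overlapped through Aβ42 replicate 2.

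Of 12 radial glia markers, which progenitors expressing CUX1 and POU3F2 also carry, 8 were higher and 4 lower with Aβ42. Of all genes, 7.05% passed as lower and 7.12% as higher with the block. With the replicate block HOPX, a marker of outer radial glia, fell (log2 fold change -0.45 ± 0.134 without the block), and so did NES and SLC1A3, while NOTCH1 rose (0.27 ± 0.091 without the block).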
